A study of Mus musculus with 16 samples.

Results

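The genes described here are 9 mouse genes of innate lymphoid cells and natural killer (NK) cells. They comprise the transcription factors Nfil3, Rora, Tbx21 and Eomes, the NK receptors Klrd1, Klrb1c and Klrk1, the protease gene Gzmb and the cytokine receptor gene Il18r1. They were chosen by symbol, and all 9 matched 1 of the 38293 Ensembl genes with counts. The comparison asks how far P6D4 carries innate lymphoid expression. P6D4 derives from the murine thymic lymphoma SCID.adh and is labelled as DN3, the thymocyte stage at which the T cell receptor beta chain is rearranged. 70Z/3 is a lymphoblast line labelled as pre-B, an early stage of B cell development. The labels name no treatment, age or strain for either line, and each line is 1 cell line, so lineage and line cannot be told apart. RNA-Seq covered 3 libraries of P6D4 and 3 of 70Z/3, with 45.5 to 54.8 M counts in genes per library, and Miz1 ChIP-Seq 1 library per line.

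Innate lymphoid cells are lymphocytes without rearranged antigen receptors, and NK cells are their cytotoxic branch. Their early precursors need Nfil3 and share factors such as Tcf7, Gata3, Tox and Id2 with early T cells. Rora is required for the type 2 innate lymphoid cell, while Tbx21, which encodes T-bet, and its relative Eomes drive NK maturation. Mature NK cells read target cells through lectin-like receptors encoded in the NK gene complex of chromosome 6 and kill with perforin and granzymes.

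The labels were checked first against fixed markers. All 12 DN3 markers reached 1 CPM (count per 1 M counts in genes, after scaling between libraries) in every P6D4 library, with a summed level of 3373 to 3417 CPM in P6D4 and 369 to 375 CPM in 70Z/3. Of these, 5 also reached 1 CPM in every 70Z/3 library. Cd28 was higher in 70Z/3, at 219 CPM against 33.9 CPM in P6D4, and made up most of the 70Z/3 sum (named after its values were seen). All 12 pre-B markers reached 1 CPM in every 70Z/3 library, and 2 did so in P6D4. The pre-B sums were 10.9 to 14.7 CPM in P6D4 and 4043 to 4171 CPM in 70Z/3. Libraries of a line were alike (correlation of log2 CPM across genes 0.997 to 0.998) yet more apart than counting noise alone would leave them, with 2.46 to 13.8 for chi-square over its degrees of freedom. The labels do not say that they came from separate cultures, so p-values measure how far these libraries spread, which can be a technical spread only.

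P6D4 carried 3 of the 4 factors and almost none of the receptors. Rora, Nfil3 and Tbx21 were high in P6D4 and near 0 in 70Z/3, whereas Klrd1 and Klrb1c were higher in 70Z/3. Klrk1 and Il18r1 had few counts in either line, and Eomes and Gzmb had none. Of the 9 genes, 5 had enough counts to test, and edgeR called 3 of these higher and 2 lower in P6D4 (threshold 0.05 for the adjusted p). Over all 13750 genes tested, 86.4% were called, 43.3% as higher and 43.1% as lower. All 5 also passed a test against a 2-fold difference, which 35.1% of tested genes passed. Each of the 5 was low in one line, so it could enter the test only through the other line and had to differ there. These counts are therefore a description and no support for a pattern.

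**Figure D1:**
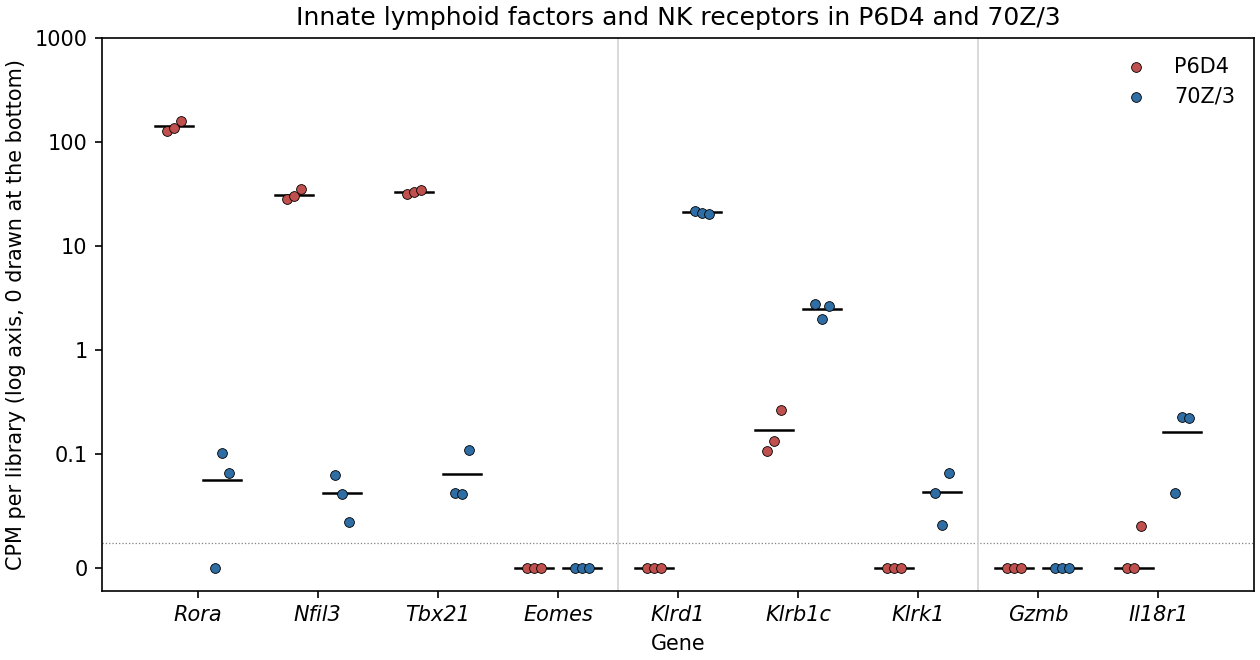
CPM of the 9 genes in each library on a log axis, with P6D4 left of 70Z/3, 1 point per library and a bar at the mean; the dotted line sets off libraries at 0. The P6D4 points of Rora, Nfil3 and Tbx21 lie between 28.0 and 160 CPM, against at most 0.111 CPM in 70Z/3, while Klrd1 is at 0 in P6D4 and between 20.4 and 21.8 CPM in 70Z/3.

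Nfil3, a basic leucine zipper factor needed early in innate lymphoid and NK development, lies at chr13:52967209-52982878 (GRCm38). It was at 28.0, 30.3 and 35.2 CPM in the P6D4 libraries and at 0.0638, 0.0414 and 0.0222 CPM in the 70Z/3 libraries. The 70Z/3 values stand for 3, 2 and 1 counts, so the gene was barely read there, and the lines did not overlap. The log2 fold change came to 9.43 ± 0.20 (SE, n = 3 per line; edgeR adjusted p = 3.2e-15). From summed counts the ratio was 725, with a 95% counting interval of 333 to 1978. This interval covers counting error only, as do those below.

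Rora encodes an orphan nuclear receptor and spans 734843 bp at chr9:68653404-69388246. Its P6D4 libraries were at 128, 136 and 160 CPM and its 70Z/3 libraries at 0, 0.104 and 0.0666 CPM. One 70Z/3 library held no Rora read and the others 5 and 3. The log2 fold change came to 11.21 ± 0.24 (SE; edgeR adjusted p = 8.75e-10), and the ratio of summed counts was 2466 (interval 1251 to 5712). The gene's bounds overlap 5 annotated noncoding genes, of which only Gm15511 was in the count table, with 0 counts in both lines.

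Tbx21, at chr11:97098007-97115331, encodes T-bet, a T-box factor of NK cells, type 1 innate lymphoid cells and type 1 helper T cells. The P6D4 libraries were at 31.5, 32.8 and 34.4 CPM and the 70Z/3 libraries at 0.0426, 0.0414 and 0.111 CPM. The P6D4 values lay close together, with an SD of 1.44 CPM. The log2 fold change came to 8.95 ± 0.15 (SE; edgeR adjusted p = 4.35e-17) and the ratio of summed counts 512 (interval 269 to 1120).

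Eomes, at chr9:118478186-118486132, encodes the T-box factor that acts beside T-bet in conventional NK cells. It had 0 counts in all 6 libraries. With 3 counts per library as the limit that a count of 0 allows, its level was at most 0.0616 CPM in P6D4 cells and 0.0666 CPM in 70Z/3, for counting error only. The T-box pair was therefore split in P6D4, with Tbx21 read at over 30 CPM in every library and Eomes not detected at this depth.

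The wider list of innate lymphoid and NK factors held 26 genes, of which 14 were called higher and 7 lower in P6D4, with 5 too low to test. Its median log2 fold change was 0.64, beside 0.01 over all genes tested, of which 43.3% were called higher and 43.1% lower. Among its genes, Rora, Nfil3, Tbx21 and Zbtb16 were at or near 0 in 70Z/3, and Zeb2 and Bach2 were near 0 in P6D4. Each could enter the test only through the other line and had to differ there. The counts and median of the list are therefore a description and no support for a pattern. Among the 14, Tox, Runx1, Ikzf3, Ets1 and Rara did not pass the test against a 2-fold difference. Among the 7, Prdm1 did not. All of these but Tox were named after their values were seen. Zbtb16, which encodes PLZF, a factor of innate lymphoid precursors and NKT cells, was at 9.10, 9.32 and 8.78 CPM in P6D4 and at 0 in the 70Z/3 libraries, at least 136-fold higher. Gata3, a factor of T cells and type 2 innate lymphoid cells, averaged 145 ± 13.9 CPM in P6D4 cells and 1.40 ± 0.188 CPM in 70Z/3 cells (SD, n = 3).

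Tcf7, the factor TCF-1 of early T and innate lymphoid precursors, reached 1305 ± 50.5 CPM in P6D4 against 32.6 ± 0.670 CPM in 70Z/3. Id2, an inhibitor of E proteins that innate lymphoid cells need, was at 134 ± 9.43 CPM in P6D4 cells and 19.2 ± 1.37 CPM in 70Z/3 (log2 fold change 2.80 ± 0.06, SE; edgeR adjusted p = 2.79e-14). Tox, an HMG box factor of T and innate lymphoid development, differed less, by 0.82 ± 0.09 (SE) on the log2 scale. These 3 factors were thus read in both lines and called higher in P6D4.

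Zeb2, a repressor active late in NK maturation, ran the other way, with 5 counts in P6D4 in all and 161 ± 6.88 CPM in 70Z/3 (log2 fold change -12.19 ± 0.12, SE). Bach2, a repressor of effector programmes in lymphocytes, had 7 counts in P6D4 cells and 97.4 ± 4.48 CPM in 70Z/3 (-11.01 ± 0.13, SE). The edgeR adjusted p of Zeb2 was 2.84e-19 and that of Bach2 9.94e-19. Besides Prdm1, the other factors called lower were Runx3, Irf4, Irf2 and Batf (named after their values were seen). Runx3 was at 2.08 CPM in P6D4 cells and 133 CPM in 70Z/3. The log2 fold changes were -6.01 for Runx3, -5.04 for Irf4, -2.00 for Irf2 and -2.64 for Batf.

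Klrd1 encodes CD94, a lectin-like chain that cannot signal by itself and pairs with NKG2 chains to bind the class Ib molecule Qa-1. The gene lies at chr6:129588092-129598775. It had 0 counts in the 3 P6D4 libraries and 1022, 1003 and 919 counts in the 70Z/3 libraries. Those 70Z/3 counts amount to 21.8, 20.8 and 20.4 CPM, so the gene was read evenly in the pre-B line. Against a floor of 3 counts per library Klrd1 was at least 341-fold lower in P6D4 (edgeR adjusted p = 7.58e-15). The NKG2 partners Klrc1 and Klrc2 had 0 counts in all 6 libraries, and so did Klrc3. The neighbouring lectin gene Klre1 had 0 counts in P6D4 and 6 in 70Z/3.

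Klrb1c, at chr6:128778485-128788641, encodes an activating NKR-P1 receptor that serves as an NK cell marker. It was at 0.108, 0.133 and 0.267 CPM in P6D4 and 2.77, 1.99 and 2.64 CPM in 70Z/3. Both lines had reads, 26 counts in P6D4 and 345 in 70Z/3, and they did not overlap. The log2 fold change came to -3.87 ± 0.26 (SE; edgeR adjusted p = 1.66e-09), or a ratio of 14.8 in favour of 70Z/3 (interval 9.96 to 23.05). In bulk RNA such a level cannot tell fewer cells with the transcript from less transcript per cell.

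Klrk1 encodes NKG2D, a receptor for stress-induced ligands, at chr6:129610323-129623903. Its counts were 0, 0 and 0 in P6D4 and 2, 1 and 3 in 70Z/3. Both lines lie at or under the floor of 3 counts per library, so no fold is given. An exact two-sided permutation test over libraries gave p = 0.1, the smallest that 3 against 3 can give. Without the filter on low counts edgeR called Klrk1 lower in P6D4 (adjusted p = 0.0213), and DESeq2 did not (adjusted p = 0.1).

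The upstream sequences of 3 genes are shown because they stand for 3 outcomes: Tbx21 was higher in P6D4, Klrb1c was lower, and Gzmb was at 0 in both. Each is the 250 bases before the annotated start, on the gene's strand, from RefSeq (GRCm38.p6). The windows are chr11:97115332-97115581, chr6:128788642-128788891 and chr14:56262335-56262584, all on the minus strand. Capitals mark matches to any of the 4 motifs searched on both strands.
Tbx21: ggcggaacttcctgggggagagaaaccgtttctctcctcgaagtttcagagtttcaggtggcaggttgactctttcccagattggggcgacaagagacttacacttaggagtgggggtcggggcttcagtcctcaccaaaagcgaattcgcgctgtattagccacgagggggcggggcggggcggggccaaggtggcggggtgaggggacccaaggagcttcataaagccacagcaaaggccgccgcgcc
Klrb1c: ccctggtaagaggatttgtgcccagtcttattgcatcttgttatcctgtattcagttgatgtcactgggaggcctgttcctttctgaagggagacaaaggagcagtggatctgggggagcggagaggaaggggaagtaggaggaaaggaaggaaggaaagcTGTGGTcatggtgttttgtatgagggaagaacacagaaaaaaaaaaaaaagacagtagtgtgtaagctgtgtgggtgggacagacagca
Gzmb: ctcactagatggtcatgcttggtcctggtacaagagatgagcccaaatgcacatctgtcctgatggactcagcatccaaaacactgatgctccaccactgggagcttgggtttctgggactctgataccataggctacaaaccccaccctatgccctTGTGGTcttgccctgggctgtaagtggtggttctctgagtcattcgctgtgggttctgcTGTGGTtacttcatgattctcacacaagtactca
The motifs were a T-box site (AGGTGTNA), a ROR site (AGGTCA), an Nfil3 site (TTANGTAA) and a Runx site (TGTGGT). Over all 32851 promoter entries they occurred in 2.68%, 14.02%, 2.06% and 14.05% of such windows. The Tbx21 window held none of them. Klrb1c held the Runx letters once, at positions -89 to -84 counted back from the start, and Gzmb held them at -93 to -88 and -34 to -29. Of the 9 genes, 8 had an entry, and no window of theirs held the T-box or Nfil3 letters. Klrk1 had a Runx match and Nfil3 a ROR site, so the matches, which are letters and not measured sites, fell in genes high in either line and in genes low in both. Klrd1 had no entry. GC content was 60.8% for Tbx21, 47.6% for Klrb1c and 50.8% for Gzmb, beside a median of 52.4% over all entries.

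Klrd1, Klrk1 and Klrb1c share the NK gene complex, taken here as the 2.64 Mb from Klrb1a to Klra2 (chr6:128609227-131247716). Of its 48 protein-coding genes 41 had a row of counts, and together these held few counts in P6D4, 388 in all, against 54531 in 70Z/3. In P6D4 29 of these 41 had no count in any library, against 10 in 70Z/3. The same 10 were at 0 in both lines, 19 were at 0 only in P6D4 and 0 only in 70Z/3. Over all 20232 protein-coding genes, 6.71% were at 0 only in P6D4, 5.52% only in 70Z/3 and 25.9% in both. None of the 41 had a higher mean level in P6D4. All 16 of them that could be tested were called lower there, beside 43.1% of all genes tested. Most of the 16 were low in P6D4 and could enter the test only through 70Z/3, so their count is a description only. The pseudogene Gm5884 in the same span differed from them, with 777 counts in P6D4 and 636 in 70Z/3 (4.96 CPM in P6D4 cells and 4.53 CPM in 70Z/3), and was not called; it was named after its values were seen. Neighbouring genes are not independent and the region was picked for its members, so no test was run on it.

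**Figure D2:**
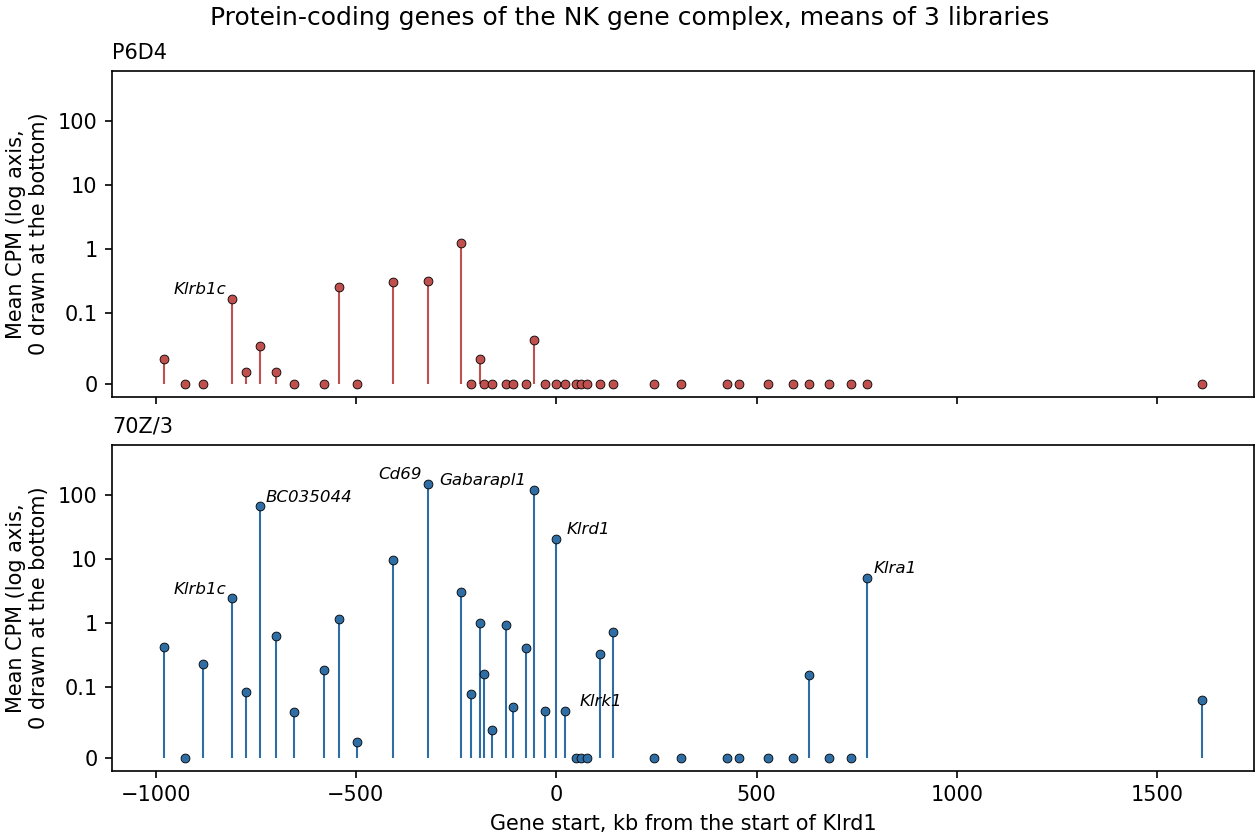
Mean CPM of the 41 protein-coding genes of the NK gene complex on a log axis, P6D4 above 70Z/3, by the distance of the gene start from that of Klrd1 in kb; genes at 0 lie on the bottom line. In P6D4 29 genes are at 0 and 1 passes 1 CPM, while 10 genes pass 1 CPM in 70Z/3.

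The genes beside Klrd1 differed widely in level. Klre1 ends 2.26 kb before it and Klrk1 begins 11.55 kb after it, and both had 6 counts in 70Z/3 in all. Gabarapl1, an autophagy gene that ends 45.8 kb before Klrd1, was at 0.0389 ± 0.0214 CPM in P6D4 cells and 122 ± 3.97 CPM in 70Z/3 cells (SD, n = 3). The activation marker Cd69 was at 0.325 ± 0.102 CPM in P6D4 cells and 150 ± 18.2 CPM in 70Z/3. BC035044, which overlaps Clec2i, was at 0.0315 CPM in P6D4 cells and 67.7 CPM in 70Z/3. Other protein-coding genes at or above 1 CPM in 70Z/3 were Clec2d (9.75 CPM), Clec12a (3.12 CPM), Klrb1f (1.15 CPM) and Clec1b (1.01 CPM). Clec12a, a myeloid inhibitory lectin, was the protein-coding gene of the complex above 1 CPM in P6D4, at 1.26 ± 0.307 CPM.

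Of the 25 lectin-like NK receptors listed, 24 had a row of counts and 7 could be tested. Those 7 were called lower in P6D4 and 0 were called higher, beside 43.1% and 43.3% of all genes tested. The median log2 fold change of the 7 was -7.03, or -3.87 once genes at 0 take their bounds. Each of the 7 was low in P6D4 and could enter the test only through 70Z/3. Neither the counts nor the median are therefore support for a pattern. Klrg1 was too low to test and ran the other way. It had 4, 4 and 11 counts in P6D4 and 1, 0 and 0 in 70Z/3, a ratio of 17.0 (interval 2.7 to 706). Klra1, a Ly49 receptor, had no count in P6D4 cells and 5.18 ± 0.226 CPM in 70Z/3 cells, at least 84.1-fold lower in P6D4. Among the Klra genes 7 were at 0 in every library. Klra and Klrb1 genes have near-identical copies and reads that align to several places were not counted, so the split between copies is uncertain. The least difference among the 7 was that of Klrb1f, at -2.12 ± 0.28 (SE) on the log2 scale.

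Of the adaptors that carry the receptors' signal, DAP10, DAP12 and the Fc receptor gamma chain averaged at most 4.38 CPM in either line. Hcst, or DAP10, through which NKG2D signals, was at 0.216, 0.417 and 0.308 CPM in P6D4 and 2.47, 2.80 and 2.71 CPM in 70Z/3 (log2 fold change -3.08 ± 0.20, SE; edgeR adjusted p = 8.25e-10). Tyrobp, or DAP12, was at 0.499 ± 0.0431 CPM in P6D4 cells and 0.621 ± 0.0718 CPM in 70Z/3, and missed the threshold (edgeR adjusted p = 0.181). Fcer1g, the Fc receptor gamma chain, was at 2.29 CPM in P6D4 cells and 4.38 CPM in 70Z/3.

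Of the 13 adaptors and signalling genes listed, 2 were called higher and 8 lower in P6D4, beside 43.3% and 43.1% of all genes tested. Tyrobp was not called, Sh2d1b2 was at 0 and Sh2d1b1 had no match. The median log2 fold change of those tested was -0.82. Among the 8, Fcer1g, Zap70, Vav1 and Ptpn11 did not pass the test against a 2-fold difference (log2 fold changes -0.94 to -0.53). All of these but Fcer1g were named after their values were seen. Both that rose also serve T cells. Cd247, the zeta chain, was at 153 ± 0.999 CPM in P6D4 cells and 3.86 ± 0.197 CPM in 70Z/3, and Sh2d1a, the adaptor SAP, was at 17.3 ± 0.205 CPM in P6D4 with 3 counts in 70Z/3 (ratio 809, interval 276 to 3925). Syk, the kinase that DAP12 recruits, had 3 counts in P6D4 but 120 ± 3.99 CPM in 70Z/3, which is a ratio of 6292 in favour of 70Z/3 (interval 2153 to 30510). Plcg2, a phospholipase of B cells and NK cells, was at 1.26 ± 0.0750 CPM in P6D4 cells and 671 ± 8.68 CPM in 70Z/3.

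The list of other NK receptors and surface markers, of which Cd69 lies in the complex, was divided. Of its 19 genes 9 were called higher in P6D4, 7 lower and 3 were too low to test. Over all genes tested 43.3% were called higher and 43.1% lower. The median log2 fold change of the list was 4.60, or 4.43 once genes at 0 take their bounds. Genes near 0 in one line could enter the test only through the other line, so counts and median are a description only. Ncr1, the receptor NKp46 that marks NK cells, had 6, 3 and 7 counts in P6D4 cells and 0 in 70Z/3. Cd226, an activating receptor that binds Pvr, was at 11.4 ± 3.34 CPM in P6D4 and had 1 count in 70Z/3, a ratio of 1577 (interval 283 to 62330). Thy1, found on T cells and many innate lymphoid cells, was at 669 ± 14.1 CPM in P6D4 cells and 0.304 ± 0.135 CPM in 70Z/3. Itga1, an integrin chain of tissue-resident NK cells, had 1 count in P6D4 cells and 80.7 ± 6.68 CPM in 70Z/3, and Cd244a, the receptor 2B4, had 6 counts in P6D4 cells and 110 ± 6.84 CPM in 70Z/3.

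Gzmb, at chr14:56258836-56262334, encodes granzyme B, the protease that starts apoptosis in target cells. It had 0 counts in all 6 libraries, below 0.0616 CPM in P6D4 cells and 0.0666 CPM in 70Z/3 by the floor of 3 counts. Gzma, which encodes granzyme A and lies on another chromosome, stood at 266, 290 and 328 CPM in P6D4 and 0.0851, 0.207 and 0.155 CPM in 70Z/3. P6D4 thus read Gzma at a high level and Gzmb not at all. Of other granzyme genes, Gzmm was at 1.49 CPM in P6D4 cells and 0.489 CPM in 70Z/3, and Gzmk had 20 counts in P6D4 and 0 in 70Z/3. Gzmm and Gzmk were named after their values were seen. The log2 fold change of Gzma came to 10.92 ± 0.16 (SE; edgeR adjusted p = 5.63e-12), and its bounds overlap Cdc20b, which had 75 counts in P6D4 and 2 in 70Z/3.

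Prf1, the perforin that lets granzymes into the target, had 8, 24 and 15 counts in P6D4 cells and 0 in 70Z/3, too few to test. Ctsc, the peptidase that activates granzymes, was at 0.108, 0.0190 and 0.0205 CPM in P6D4 and 126, 123 and 122 CPM in 70Z/3 (log2 fold change -11.18 ± 0.12, SE; edgeR adjusted p = 3.59e-19). Gzma was thus read in the line where Ctsc was near 0. Ctsw, a cathepsin of cytotoxic lymphocytes, was at 18.2 ± 2.54 CPM in P6D4 with 2 counts in 70Z/3, a ratio of 1265 (interval 350 to 10450). Lamp1, a lysosome and granule membrane protein, was at 71.1 ± 2.45 CPM in P6D4 cells and 320 ± 4.45 CPM in 70Z/3. Of the 23 effector genes, 9 were called higher and 3 lower in P6D4, beside 43.3% and 43.1% of all genes tested. Another 2 were not called and 9 were too low to test, 6 of them granzyme genes at 0 in every library. The median log2 fold change of those tested was 0.55. Among the 9 called higher, Serpinb9, Stx11, Rab27a and Lyst did not pass the test against a 2-fold difference (named after their values were seen).

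Il18r1, at chr1:40465552-40500854, encodes the binding chain of the IL-18 receptor, which innate lymphoid cells and NK cells use to answer IL-18. Its counts were 0, 0 and 1 in P6D4 and 2, 11 and 10 in 70Z/3. The lines did not overlap, but the highest library held 0.228 CPM. The ratio of summed counts was 25.7 in favour of 70Z/3 (interval 4.18 to 1060), and the exact two-sided permutation test gave p = 0.1, the smallest the design allows. The gene was too low to enter the edgeR test, but it was called lower without the filter on low counts (adjusted p = 9.38e-06) and by DESeq2 (adjusted p = 0.00307). The signalling partner Il18rap, 14.5 kb further along, had 1 count in each P6D4 library and 4.89, 5.51 and 5.44 CPM in 70Z/3. That is a ratio of 276 in favour of 70Z/3 (interval 94.2 to 1343), with a log2 fold change of -7.93 ± 0.25 (SE) and an edgeR adjusted p of 1.32e-13.

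Il1rl1, the IL-33 receptor of type 2 innate lymphoid cells, ends 133 bp before Il18r1. It had no count in P6D4 cells and 0.800 ± 0.0774 CPM in 70Z/3 cells, at least 13.0-fold lower in P6D4. Within 300 kb of Il18r1 lie 8 protein-coding genes with counts, Il18r1 itself included. None had a higher mean in P6D4, and 5 had no count there. Of these 5, 3 were at 0 in both lines and 2 only in P6D4, while 0 genes were at 0 only in 70Z/3. Over all 20232 protein-coding genes these shares were 25.9%, 6.71% and 5.52%. The 4 tested were called lower, beside 43.1% of all genes tested. Each of the 4 was at or near 0 in P6D4 and could enter the test only through 70Z/3, so it had to differ there.

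The other cytokine receptors of innate lymphocytes were divided. Il2rb, the shared chain for IL-2 and IL-15, was at 133, 159 and 171 CPM in P6D4 and 0.277, 0.331 and 0.200 CPM in 70Z/3 (log2 fold change 9.14 ± 0.18, SE; edgeR adjusted p = 2.84e-10). Il12rb2, an IL-12 receptor chain, was at 79.5 ± 1.497 CPM in P6D4 cells and 3.65 ± 0.185 CPM in 70Z/3, and Il17rb, the IL-25 receptor, at 83.6 ± 4.34 CPM in P6D4 with 8 counts in 70Z/3. Il1r2, a decoy receptor, had no count in P6D4 and was at least 207-fold lower there, and Il1rap, the shared chain of IL-1 family receptors, had 5 counts in P6D4 cells and 17.4 ± 0.451 CPM in 70Z/3. Of the 24 genes of this list 8 were called higher and 13 lower in P6D4, beside 43.3% and 43.1% of all genes tested. The median log2 fold change of the list was -1.08, and 3 genes were too low to test. Il2rg and Traf6 among the 8, and Il7r, Ifngr1 and Irak4 among the 13, did not pass the test against a 2-fold difference. They were named after their values were seen.

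**Figure D3:**
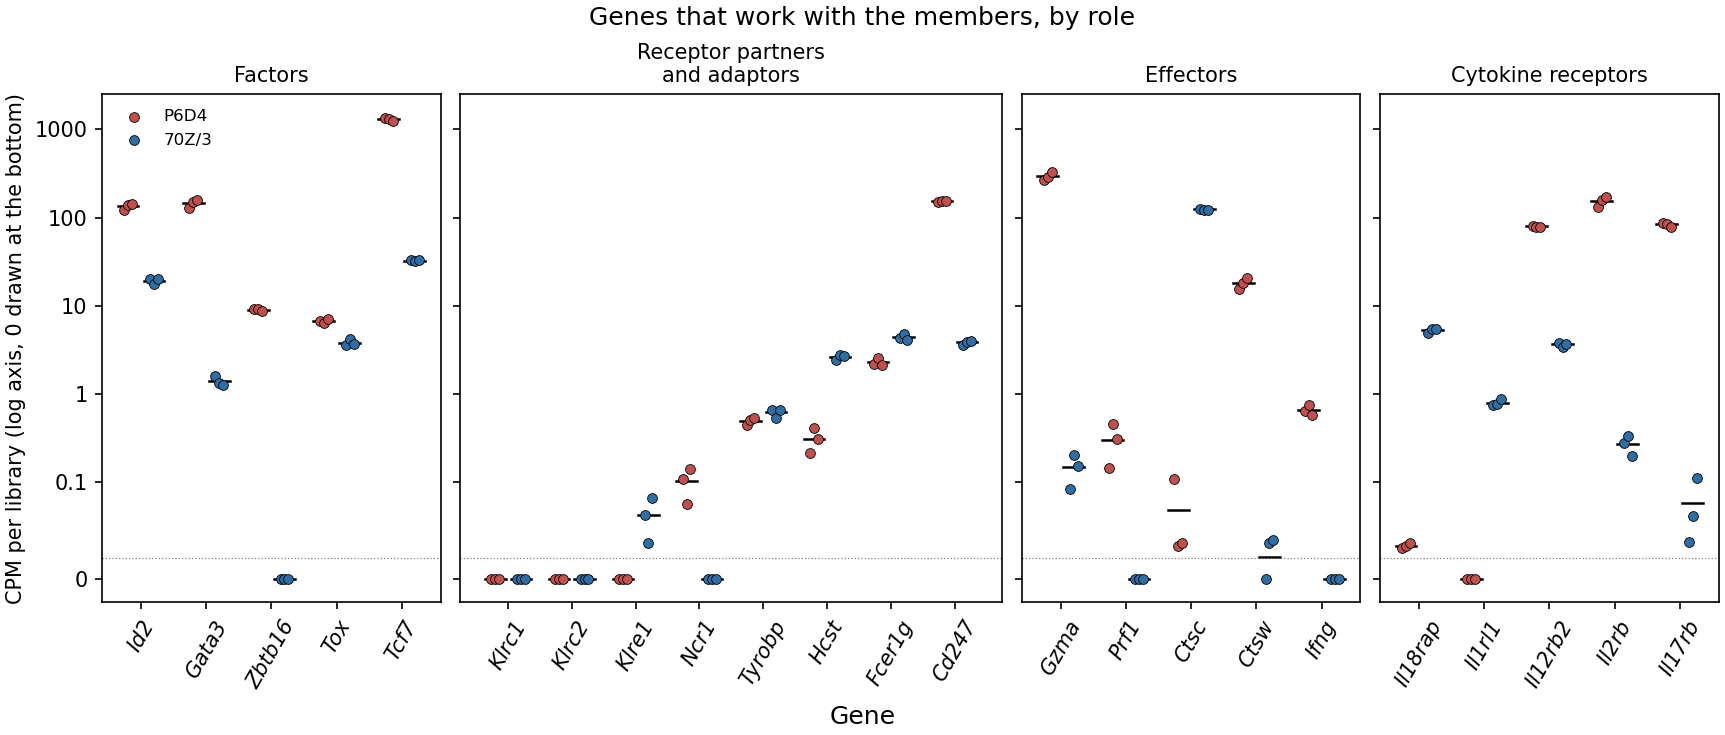
CPM per library on a log axis of genes that work with the members, by role, with P6D4 left of 70Z/3 and a bar at the mean; the dotted line sets off libraries at 0. The factors shown, Id2, Gata3, Zbtb16, Tox and Tcf7, lie higher in P6D4, while 7 factors of the wider list were called lower. Klrc1 and Klrc2 are at 0 in both lines, and Ctsc and Il18rap lie higher in 70Z/3.

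Fixed marker lists place these values beside those of whole cell types. Of 10 markers of mature NK cells, 2 reached 1 CPM in every P6D4 library, Gzma and Tbx21, and 0 did in 70Z/3. Their summed level was 298 to 364 CPM in P6D4, most of it Gzma, and 0.234 to 0.352 CPM in 70Z/3. Eomes, Klra4 and Klra8 were at 0 in both lines. Of 10 markers of innate lymphoid precursors, 8 reached 1 CPM in P6D4 and 7 in 70Z/3. Pdcd1 and Il18r1 were the ones that did not in P6D4. The P6D4 sums ran from 1871 to 1905 CPM, most of it Tcf7 (mean 1305 CPM), a factor of early T cells too. The 70Z/3 sums ran from 661 to 694 CPM, most of it Itga4 (mean 552 CPM, against 76.3 CPM in P6D4). Of the precursor markers tested, Itga4 and Pdcd1 were called lower in P6D4 and the others higher (Itga4 and Pdcd1 named after their values were seen). For type 2 innate lymphoid cells 3 of 10 reached 1 CPM in P6D4, namely Gata3, Rora and Il17rb, and 1 in 70Z/3, Gata3. Areg was at 0 in both lines. The sums of the type 2 list were 346 to 398 CPM in P6D4 and 2.34 to 2.49 CPM in 70Z/3. Of 7 matched markers of gamma-delta T cells 2 reached 1 CPM in P6D4 and 1 in 70Z/3, with sums of 17.8 to 18.7 CPM in P6D4 and 52.8 to 53.2 CPM in 70Z/3. Blk, a kinase that B cells also use, made up most of the 70Z/3 sum, at 0.0120 CPM in P6D4 cells and 52.9 CPM in 70Z/3 (named after its values were seen). T cells use several of the same genes, and 4 of 8 markers of mature alpha-beta T cells reached 1 CPM in P6D4 and 3 in 70Z/3, with sums of 109 to 124 CPM in P6D4 and 32.9 to 34.7 CPM in 70Z/3. The lists share Tbx21, Eomes, Nfil3, Rora and Il18r1 with the 9 genes. Whether cells of these types were present in the cultures was not tested.

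**Figure D4:**
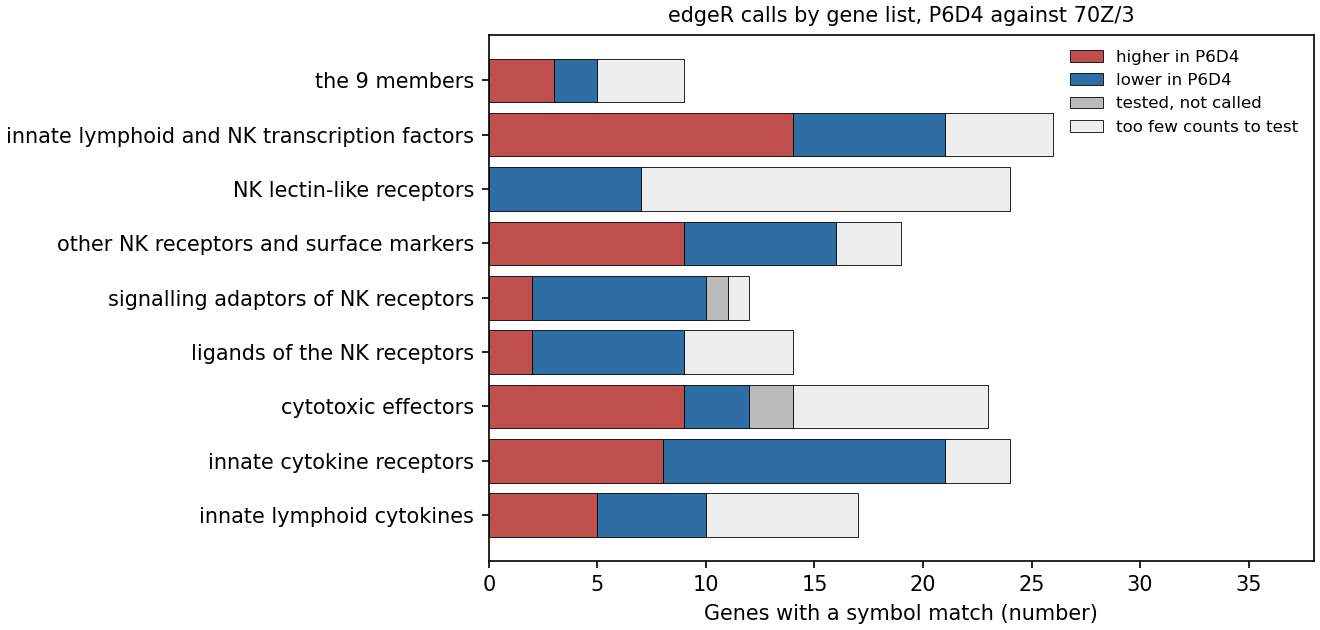
Number of genes per list that edgeR called higher or lower in P6D4 than in 70Z/3, that were tested and not called, or that had too few counts to test. The lectin-like receptors hold 0 genes called higher and 7 called lower, and those 7 could enter the test only through 70Z/3. The factor list holds 14 called higher and 7 lower, beside 43.3% and 43.1% of all genes tested. Factors near 0 in one line likewise could enter only through the other line.

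The genes most like Rora over the 6 libraries, by Euclidean distance of log2 CPM, were Ephb2 (distance 0.775), Acsl3 (0.866) and Fam169b (0.977), at 119, 119 and 121 CPM in P6D4 and at most 0.0707 CPM in 70Z/3. Those most like Klrd1 were Car3 (0.0467), Tbc1d8b (0.0584) and Rgs7bp (0.0968), at 0 in P6D4 and 20.6 to 20.8 CPM in 70Z/3. With 2 lines such likeness reflects a like level in each line and little more.

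Miz1, the zinc finger factor studied in this series, left 1 peak at these genes. It lay in the P6D4 list at chr9:68963315-68963585, inside Rora and 309.7 kb from the start used for its promoter entry. The authors' peak had a pileup of 7 tags, a fold enrichment of 6.15 and a q-value of 1.10e-06, rank 12438 of 21629 by fold. No peak summit lay in or within 1 kb of the other 8 genes in the P6D4 list, or of any of the 9 in the 70Z/3 list of 10462 peaks. Of 21887 protein-coding genes, 9.48% had such a summit in the P6D4 list and 11.0% in the 70Z/3 list, and a gene as long as Rora has more room for one. After duplicate removal the P6D4 ChIP kept 2.07 M tags and the 70Z/3 ChIP 4.48 M, without a replicate.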

How the data were processed

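The deposited RNA values are raw counts per Ensembl gene, 1 file per library, with 5 HTSeq summary lines that were left out. Per the submitters' processing notes reads were handled with Bowtie2 2.10, TopHat2 2.0.10, HTSeq, bedtools and SAMtools, and the builds mm10 and GRCm38. The library kit keeps strand, per the labels' protocols. Which strand setting the counter had is not stated in those sources, and genes that overlap may share counts. HTSeq put 14.5 to 16.0% of its counted total outside genes, and for each count in a gene the P6D4 libraries held 1.10 to 1.14 multiply placed alignments and the 70Z/3 libraries 1.41 to 1.44. Symbols were found for 36345 of 38293 genes.

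Counts were scaled by TMM and tested with edgeR 4.0.16 (filterByExpr, robust quasi-likelihood fit, Benjamini-Hochberg adjusted p under 0.05 over all genes tested, glmTreat at 2-fold), with cell line as the only term, in R 4.3.3. The SE is the log2 fold change divided by the square root of F, and understates counting error where a line has few counts. For genes at 0 in one line folds are bounds against 3 counts in the smallest library of that line. In every list, a gene near 0 in one line could enter the test only through the other line. Counts of calls and medians of the lists are therefore descriptions only. Ratios of summed counts carry exact 95% intervals (scipy 1.17.1). Exon lengths were not used here, so levels are compared within a gene and not between genes.

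For Miz1, the authors called peaks with MACS 2.0.10.20120913 from 1 ChIP and 1 control library per line at a q-value threshold of 0.01, per the file headers. The authors deposited per peak a pileup signal in tags, a fold enrichment ratio over local background and −log10 p values, all as MACS wrote them. Gene bounds and promoters came from RefSeq GRCm38.p6, and 2 Klra genes placed outside the main span of chromosome 6 were left out. Samples for histone marks and input are not analysed here.

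The members and lists were chosen with earlier results of these data known. Named are the 9 members, the 2 most raised and 2 most lowered called genes of each list with at least 1 CPM, a fixed set of partners, and genes of both clusters, apart from 1 gene that is not reported here; genes outside this rule are marked, or are counted or named only to complete a list. Alternatives were other scalings, filters, DESeq2 1.42.0, a replicate block and leaving out each library. Figures used matplotlib 3.10.9.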

Additional observations from a re-analysis of the deposited data

How the results depend on the processing

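The 3 factors called higher and the 2 receptors called lower kept their direction and call under every alternative run: both other scalings, DESeq2, both other filters, the replicate block and leaving out each library. Leaving out 1 library gave log2 fold changes of 10.64 to 11.97 for Rora, 9.14 to 9.81 for Nfil3, 8.70 to 9.53 for Tbx21, -13.07 to -12.99 for Klrd1 and -4.32 to -3.62 for Klrb1c. The number of members called lower was 2, and 2 to 3 when a library was left out, the added gene being Il18r1, which passed the filter without any 1 of the P6D4 libraries or without 70Z/3 replicate 1 (edgeR adjusted p = 0.000136 to 0.00593). Without a filter on low counts it was 4, with Klrk1 (edgeR adjusted p = 0.0213) and Il18r1 (9.38e-06) added. DESeq2 called Il18r1 (adjusted p = 0.00307) and not Klrk1 (0.1). Over all genes 5325 to 6671 were called higher and 5312 to 6737 lower across alternatives, and the other scalings moved the median log2 fold change by -0.0228 and 0.0568. The replicate block left 3 members called higher and 2 lower. Same-numbered libraries of the lines did not deviate together (r = -0.254, -0.237 and 0.068), and differently numbered ones had r from -0.231 to 0.348. The numbers thus showed no pairing in these values. Whether libraries shared a batch was not tested. Counts of the context lists were recomputed under RLE size factors only and stayed within 1.5 times there, and the single Miz1 peak stood under a 10 kb window and a q-value of at most 1e-05. At this depth a gene with 0 counts in a library may still lie at up to about 0.06 CPM, for counting error only.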

Other observations

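Of 15 genes for ligands of NK receptors, 7 were called lower in P6D4, 2 higher, 5 were too low to test and 1 had no match (median log2 fold change -0.77), beside 43.1% called lower and 43.3% higher over all genes tested. Ulbp1, Pvr and Cd48 were among the 7 and did not pass the test against a 2-fold difference (named after their values were seen). Raet1d, a ligand of NKG2D, had no count in P6D4 cells and 4.06 ± 0.192 CPM in 70Z/3 cells (SD, n = 3), at least 65.9-fold lower in P6D4. H60b and H60c, other NKG2D ligands, ran the other way. H60b was at 7.02 ± 0.386 CPM in P6D4 cells and 0.187 ± 0.0690 CPM in 70Z/3, and H60c at 1.34 ± 0.184 CPM in P6D4 with no count in 70Z/3 cells, at least 20.2-fold higher. Clec2d, a ligand of NKR-P1 receptors, was at 0.311 ± 0.0392 CPM in P6D4 cells and 9.75 ± 0.330 CPM in 70Z/3.

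Among 17 cytokine genes of innate lymphocytes, 5 were called higher and 5 lower in P6D4, and 7 were too low to test (median log2 fold change -0.80). Over all genes tested the shares were 43.3% higher and 43.1% lower. Ifng, the main cytokine of NK cells, had 36, 40 and 28 counts in P6D4 cells and none in 70Z/3 cells, at least 9.92-fold higher. Tnf was at 14.2 ± 1.13 CPM in P6D4 cells and 7.76 ± 0.166 CPM in 70Z/3 (log2 fold change 0.86 ± 0.08, SE; edgeR adjusted p = 3.52e-08). Tnf did not pass the test against a 2-fold difference, and the other cytokine genes called higher averaged under 1 CPM in P6D4. The chemokine Ccl3 was at 0.0510 ± 0.0217 CPM in P6D4 cells and 3.71 ± 0.525 CPM in 70Z/3, and Ltb, which encodes lymphotoxin beta, at 0.361 ± 0.0943 CPM in P6D4 cells and 3.41 ± 0.282 CPM in 70Z/3.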
